A study of Mus musculus with 2 samples.

Results

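Pdcd1-negative CD8 T cells of mouse liver tumours were described in Crtc2-/- and Crtc2+/+ tumours. The cells were chosen by their measured transcripts. A barcode was a member with at least 2 UMIs (unique molecular identifiers, each standing for 1 captured transcript) of Cd3d, Cd3e and Cd3g together and at least 1 of Cd8a and Cd8b1. It also had 0 UMIs of Pdcd1, Cd4, Foxp3 and Cd79a, at most 1 of the cell cycle genes Mki67 and Top2a, and at most 4 of the macrophage genes C1qa, C1qb and C1qc. Members numbered 1411 of 18786 kept barcodes, 740 of 9174 in the Crtc2-/- library and 671 of 9612 in the Crtc2+/+ library. Levels of these selecting genes are therefore descriptions only.

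Both genotypes received diethylnitrosamine (DEN), a liver carcinogen, once intraperitoneally at 25 mg/kg, at the age of 2 weeks. Both were fed a NASH (non-alcoholic steatohepatitis) diet from week 8 to week 26 and were killed after that. Tumours were profiled by droplet single-cell RNA sequencing with 3' chemistry, in 1 library per genotype, and how many mice or tumours each one pools is not stated in the labels. With 1 library per genotype there is no replicate check and no test. Genotype, animal and tumour cannot be told apart, and the 95% intervals below cover counting error only.

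CD8 T cells recognise peptides on MHC class I and kill tumour or infected cells with granzymes and perforin. Pdcd1 encodes PD-1, an inhibitory receptor induced by antigen receptor signals, so CD8 T cells without its transcript can include naive, memory and bystander cells. Type I interferons act through a shared receptor whose signal reaches interferon-stimulated response elements and switches on antiviral genes. CRTC2 is a coactivator of the transcription factor CREB.

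Crtc2 itself was nearly undetectable at this depth, with 16 UMIs in Crtc2-/- members and 34 in Crtc2+/+ members, 3.94 and 9.01 CPM (UMIs of the gene per 1000000 UMIs summed over the members), a ratio of 0.437 (0.225 to 0.814). The deleted stretch of Crtc2 is unspecified in the labels, and tags that lie outside it check nothing about the genotype. The members held 4062508 UMIs in the Crtc2-/- library (median 4558.5 a cell) and 3772044 in the Crtc2+/+ library (median 5103). Their median mitochondrial share was 2.20% and 2.21%. The libraries shared 29 barcodes, 1 of them a member in both, and a doublet caller marked 14 Crtc2-/- and 4 Crtc2+/+ members.

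The defining T cell markers were present in both libraries. Cd8a stood at 395.8 CPM in Crtc2-/- and 396.9 CPM in Crtc2+/+ members, Cd8b1 at 620.1 and 639.2 CPM. Trac, the T cell receptor alpha constant gene, stood at 495.3 CPM in Crtc2-/- and 515.9 CPM in Crtc2+/+ members. Tcf7, a transcription factor of naive and stem-like T cells, was at 212.7 (198.7 to 227.3) CPM in Crtc2-/- and 164.1 (151.4 to 177.6) CPM in Crtc2+/+ members. Gzmk, a granzyme of memory and pre-exhausted cells, was at 216.9 (202.8 to 231.7) and 186.1 (172.6 to 200.4) CPM. The cells were mixed: at 2000 UMIs a cell, Tcf7 was seen in 28.4% of Crtc2-/- and 23.7% of Crtc2+/+ members (B cells 0.267% and 0%) and Gzmk in 32.1% and 29.1%. Unthinned, the Tcf7 shares were 44.3% and 51.0%, an order opposite to that of its CPM, so no order is read from them.

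Members made up 8.07% (7.52 to 8.64) of kept barcodes in the Crtc2-/- library and 6.98% (6.48 to 7.51) in the Crtc2+/+ library. Of all CD8 cells that met the rest of the rule, they made up 54.9% (52.2 to 57.6; of 1348) and 75.4% (72.4 to 78.2; of 890), so the Crtc2-/- library held relatively more CD8 cells with a Pdcd1 UMI. Absence of a Pdcd1 UMI is partly a matter of depth. Of the CD8 cells with Pdcd1, 235 of 608 in the Crtc2-/- and 116 of 219 in the Crtc2+/+ library had exactly 1 UMI of it. Among those with at least 2000 UMIs in all, 179 of 601 (29.8%) and 86 of 216 (39.8%) had no Pdcd1 UMI left after thinning to 2000. Just inside the CD8 threshold, with 1 UMI, lay 68 Crtc2-/- and 61 Crtc2+/+ members, and just outside, with 0, lay 522 and 534 barcodes. With exactly 2 Cd3 UMIs there were 10 and 5 members, against 18 and 8 barcodes with 1. At the cell cycle limit 64 and 53 members had 1 UMI, and 13 and 10 barcodes outside had 2.

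Interferon-stimulated genes stood apart in the comparison of genotypes. Over 8136 genes with a mean of at least 10 CPM, log2 ratios of Crtc2-/- over Crtc2+/+ CPM (10 CPM added to each) had a median of 0.04, and 57.3% lay above 0. At least 2-fold higher were 141 genes (1.73%), and at least 2-fold lower 54 genes (0.664%). As a mean of per-cell CPM, which gives each cell equal weight, 78 genes were higher and 58 lower. Of 40 measured type I interferon-stimulated genes 0 were above 0 and 25 were at least 2-fold lower, with a median log2 ratio of -1.14. Their summed level was 3653 (3594 to 3712) CPM in Crtc2-/- and 7885 (7795 to 7975) CPM in Crtc2+/+ members.

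**Figure D1:**
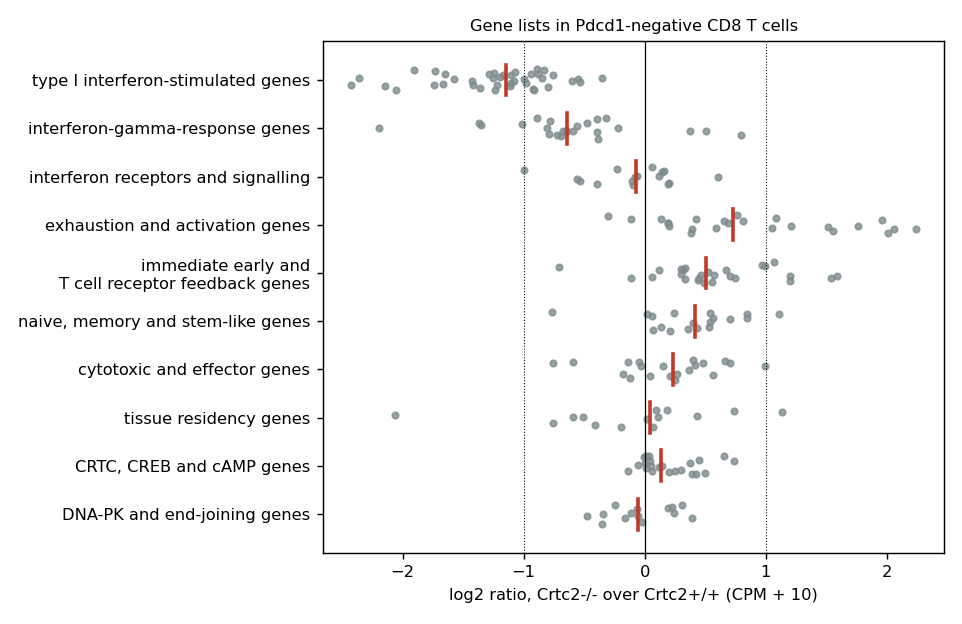
Log2 ratio of Crtc2-/- over Crtc2+/+ CPM (10 CPM added) of each measured gene in 10 lists, members only, with 1 point per gene and a red bar at the list's median; dotted lines mark 2-fold. All 40 type I interferon-stimulated genes lie left of 0 (median -1.14), and 22 of 24 exhaustion and activation genes lie right of it (median 0.73).

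The ubiquitin-like modifier gene Isg15 was at 92.3 (83.2 to 102.1) CPM in Crtc2-/- and 372.7 (353.5 to 392.7) CPM in Crtc2+/+ members. Ifit3, whose product binds viral RNA with its IFIT partners, was at 59.6 CPM in Crtc2-/- and 297.2 CPM in Crtc2+/+ members (log2 ratio -2.14). Ifit1, of the same family, was at 38.7 and 152.4 CPM. Ifit3 and Ifit3b (11.6 and 61.8 CPM) are near-identical copies, so the division of reads between them is uncertain; the same holds within the Oas, Gbp and Slfn families.

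Oasl2, an oligoadenylate synthetase-like gene, had the lowest ratio of the list: 6.89 CPM in Crtc2-/- and 80.9 CPM in Crtc2+/+ members (-2.43). Usp18, which removes ISG15 from proteins and restrains the receptor, was at 31.8 and 164.1 CPM, and the antiviral exonuclease gene Isg20 at 17.2 and 130.2 CPM. Rsad2 (viperin) was at 21.2 and 89.1 CPM, and Irf7, the factor that amplifies interferon production, at 42.6 and 110.8 CPM. Smallest in the list was the difference of the nuclear body gene Sp100, at 570.3 and 731.2 CPM (-0.35).

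The receptor and signalling layer differed less. Ifnar1 was at 85.9 CPM in Crtc2-/- and 76.9 CPM in Crtc2+/+ members, Ifnar2 at 167.1 and 176.8 CPM, Jak1 at 680.6 and 592.5 CPM and Tyk2 at 33.0 and 35.0 CPM. Of 16 genes in this list 7 were above 0 (median -0.07), and those below 0 included Irf9 (41.1 and 65.2 CPM) and Stat2 (37.7 and 58.9 CPM), which interferon itself induces. Of 24 interferon-gamma-response genes, 3 were above 0 and 4 were at least 2-fold lower (median -0.64). Cxcl10, a chemokine that draws CXCR3-bearing T cells, was at 31.5 CPM in Crtc2-/- and 180.0 CPM in Crtc2+/+ members, but 64.1% and 26.1% of its UMIs lay in 5 cells. Igtp, an immunity-related GTPase, was at 62.8 and 177.6 CPM and the feedback inhibitor Socs1 at 55.1 and 156.4 CPM. Ifng itself was at 62.8 CPM in Crtc2-/- and 36.1 CPM in Crtc2+/+ members.

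Ifit3, Isg15 and Cxcl10, all among the 15 lowest genes, are shown by their RefSeq promoters (GRCm38.p6, 250 bases before to 50 after the gene start), since they share the letters of the response element; capitals mark GAAANNGAA on either strand.

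Ifit3, chr19:34583279-34583578, plus strand: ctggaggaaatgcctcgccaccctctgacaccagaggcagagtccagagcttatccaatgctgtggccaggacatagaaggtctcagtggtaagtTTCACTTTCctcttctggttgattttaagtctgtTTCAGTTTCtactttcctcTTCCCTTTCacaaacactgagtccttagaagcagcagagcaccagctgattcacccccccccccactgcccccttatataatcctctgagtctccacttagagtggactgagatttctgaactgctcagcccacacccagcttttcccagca

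Isg15, chr4:156200769-156201068, minus strand: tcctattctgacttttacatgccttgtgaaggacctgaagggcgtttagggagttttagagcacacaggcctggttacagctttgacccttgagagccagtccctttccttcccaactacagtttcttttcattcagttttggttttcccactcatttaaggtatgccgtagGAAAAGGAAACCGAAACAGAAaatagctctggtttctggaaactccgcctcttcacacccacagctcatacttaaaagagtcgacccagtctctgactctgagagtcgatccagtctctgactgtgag

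Cxcl10, chr5:92348840-92349139, minus strand: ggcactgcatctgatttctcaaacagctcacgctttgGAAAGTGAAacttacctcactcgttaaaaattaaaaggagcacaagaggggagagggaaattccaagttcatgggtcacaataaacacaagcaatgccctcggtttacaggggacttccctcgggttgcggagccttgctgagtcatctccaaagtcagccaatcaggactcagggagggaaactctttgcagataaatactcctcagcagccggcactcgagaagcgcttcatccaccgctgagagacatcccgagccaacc

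Of 32 type I interferon-stimulated genes with a promoter in the table (of 42), 22 (68.8%) held GAAANNGAA, against 9.76% of all 27025 genes there (a gene counts where any of its promoters matches). Of the 13 matched among the 15 lowest genes 10 held it. Those 15 were picked by their ratios here and most are on the type I list, so they give no second observation. GAAANNGAA was also in 12 of 19 interferon-gamma-response genes with a promoter there (63.2%). The CREB element TGACGTCA was in 2.03% of all genes there, in 0 of the 32 interferon genes and in 4 of 23 immediate early genes. It was in 0 of 20 exhaustion and activation genes and in 1 of 19 CRTC, CREB and cAMP genes. A match describes letters and is not a binding site.

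The difference was spread over many cells. The type I list took a median of 28.9 UMIs per 10000 in Crtc2-/- members (10th to 90th percentile 13.7 to 68.6) and 53.8 in Crtc2+/+ members (17.1 to 198.0). Of the Crtc2-/- members, 17.4% lay above the Crtc2+/+ median and 1.35% above the Crtc2+/+ 90th percentile. The upper tail was thus longer in the Crtc2+/+ library, while the 10th percentiles lay close together.

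**Figure D2:**
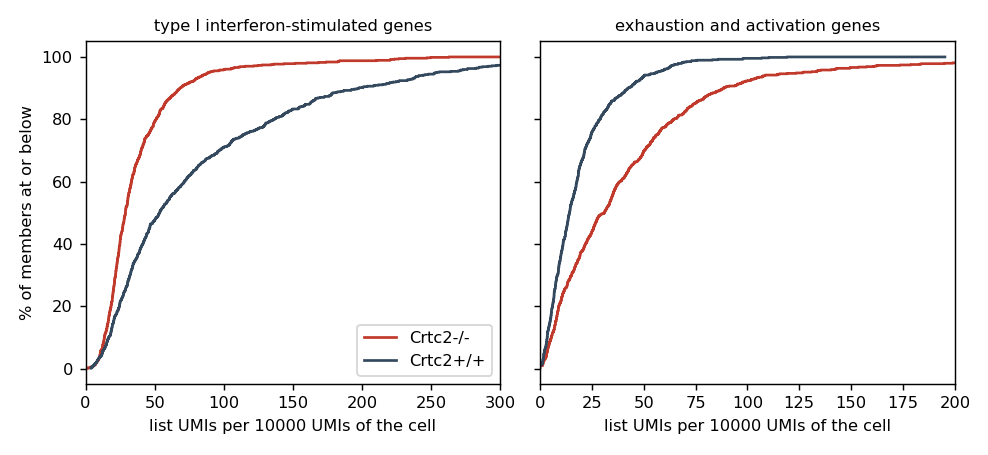
Cumulative share of members (y, %) by the UMIs of a list per 10000 UMIs of the cell (x), Crtc2-/- in red and Crtc2+/+ in dark blue; the x axes stop at 300 and 200. For type I interferon-stimulated genes the Crtc2-/- curve lies to the left (median 28.9 against 53.8), and for exhaustion and activation genes to the right (31.1 against 14.3).

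At an equal 2000 UMIs a cell (17 Crtc2-/- and 5 Crtc2+/+ members were too shallow), an Ifit3 UMI was seen in 7.88% (6.03 to 10.1) of Crtc2-/- and 29.7% (26.3 to 33.4) of Crtc2+/+ members. B cells, taken elsewhere here as a measure of free RNA, gave 2.67% and 4.71%, and their median depths were 3977.5 and 3615 UMIs. They can transcribe interferon-stimulated genes themselves, so their shares give no free-RNA level for the genes of this paragraph. Isg15 was seen in 12.5% and 29.6% of members (B cells 2.40% and 4.52%), and Usp18 in 4.43% and 18.9% (B cells 1.69% and 1.13%). Oasl2 was seen in 0.692% of Crtc2-/- and 12.8% of Crtc2+/+ members (B cells 1.69% and 4.90%). Unthinned, Ifit3 was seen in 13.8% and 44.0% of members and Isg15 in 22.3% and 43.7%.

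The same list was lower in neighbouring T cells. Its median log2 ratio was -0.99 in CD8 T cells with a Pdcd1 UMI (608 Crtc2-/- and 219 Crtc2+/+ cells) and -1.31 in CD4 T cells without Foxp3 (285 and 204 cells). Ifit3 was at 47.5 and 307.6 CPM in the CD8 cells with Pdcd1 and at 19.6 and 295.5 CPM in the CD4 cells. In barcodes without Cd3 transcripts, which hold the other cells of the tumour, Isg15 was at 119.4 CPM in the Crtc2-/- and 283.2 CPM in the Crtc2+/+ library. Macrophage and monocyte markers were mixed over all members, with 4 of 7 measured genes above 0. Lyz2 was at 200.1 CPM in Crtc2-/- and 65.8 CPM in Crtc2+/+ members, with 72.0% of its Crtc2-/- UMIs in 5 cells. Apoe was at 231.9 and 416.8 CPM. Without the members high in another lineage described below, 0 of 6 measured markers were above 0 (median -0.53). Lyz2 was then at 51.9 CPM in Crtc2-/- and 67.8 CPM in Crtc2+/+ members. The part of macrophage or free RNA in the interferon values was not tested, nor was any difference between these populations.

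Most exhaustion and activation genes were higher in Crtc2-/- members. Of 24 measured exhaustion and activation genes 22 were above 0 and 10 were at least 2-fold higher (1.73% of all genes were), with a median of 0.73 and summed levels of 3583 (3525 to 3642) and 1705 (1663 to 1747) CPM. Ccl4, which encodes the chemoattractant MIP-1 beta, stood at 755.7 (729.2 to 782.9) CPM in Crtc2-/- and 151.6 (139.5 to 164.6) CPM in Crtc2+/+ members (2.24), the first of the 15 highest genes under the naming rule. Ccl3, its neighbour in function, was at 159.3 and 30.5 CPM, whereas Ccl5, the most abundant chemokine of these cells, was at 12230 and 7874 CPM. Xcl1, which attracts cross-presenting dendritic cells, went the other way, at 177.5 CPM in Crtc2-/- and 307.5 CPM in Crtc2+/+ members. The share of members with a Ccl5 UMI had an order opposite to that of its CPM. It was 86.6% in Crtc2-/- and 93.4% in Crtc2+/+ members at 2000 UMIs, and 89.6% and 95.4% unthinned. The part in these values of members whose Pdcd1 transcript went unseen was not tested.

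**Figure D3:**
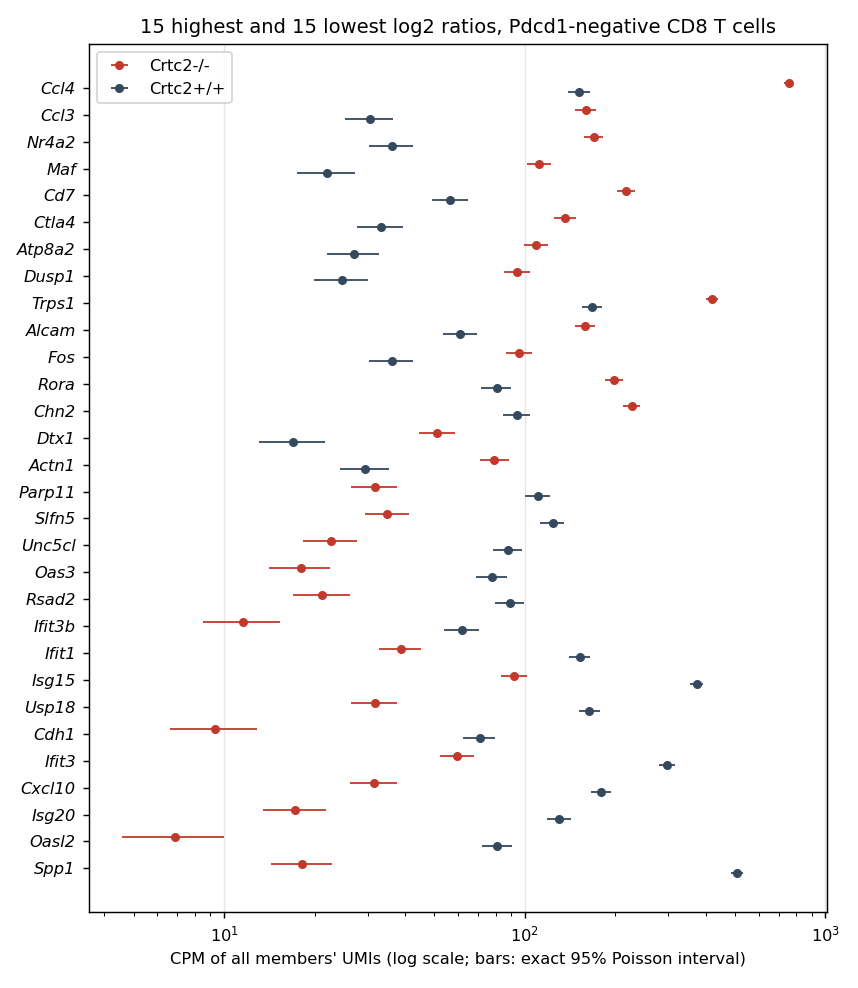
CPM of the members' summed UMIs (log scale) for the genes with the 15 highest and 15 lowest log2 ratios under the naming rule, Crtc2-/- in red and Crtc2+/+ in dark blue, bars being exact 95% Poisson intervals. Ccl4 is highest, at 755.7 and 151.6 CPM, and Oasl2 stands at 6.89 and 80.9 CPM; the Crtc2+/+ Spp1 value of 508.7 CPM lies for 92.3% in 5 cells.

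Nr4a2, an orphan nuclear receptor gene switched on after T cell activation, was at 169.4 CPM in Crtc2-/- and 36.1 CPM in Crtc2+/+ members, and Nr4a3 at 71.6 and 29.4 CPM. Tox, which maintains exhausted T cells, was at 1120 and 633.9 CPM. Its relative Tox2 had 127 UMIs in Crtc2-/- and 1 UMI in Crtc2+/+ members, a CPM ratio of 118 (20.8 to 4694). Ctla4, an inhibitory receptor, was at 136.6 and 33.1 CPM, Lag3 at 48.7 and 10.6 CPM, and Havcr2 (TIM-3) at 29.8 and 7.16 CPM. Irf4, a factor that scales with antigen receptor signal strength, was at 36.7 and 5.83 CPM. Tnfrsf18 (GITR) was the gene of the list furthest below 0, at 48.0 and 61.5 CPM.

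The Ccl3 and Ccl4 UMIs were unevenly spread. Together they were absent from 40.8% of Crtc2-/- and 57.8% of Crtc2+/+ members, and the 10% of cells with most held 69.7% and 60.4% of them. Nr4a family UMIs were absent from 61.1% and 84.4% of members. The exhaustion and activation list had a median of 31.1 UMIs per 10000 in Crtc2-/- and 14.3 in Crtc2+/+ members, and 36.5% of Crtc2-/- members lay above the Crtc2+/+ 90th percentile.

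At 2000 UMIs a cell, Ccl4 was seen in 41.4% of Crtc2-/- and 22.4% of Crtc2+/+ members (B cells 6.84% and 6.59%), Nr4a2 in 18.1% and 4.81% (B cells 1.16% and 1.88%) and Ctla4 in 17.6% and 5.71% (B cells 2.93% and 3.39%). Lag3 was seen in 11.2% and 3.15% (B cells 0.356% and 0.377%) and Tox in 66.8% and 51.2% (B cells 1.24% and 1.13%). Nr4a1 was seen in 6.36% of Crtc2-/- and 2.55% of Crtc2+/+ members, under the 15.7% and 22.03% of B cells, so nothing is read from its share, although it counts among the 10 genes above. B cells can transcribe Nr4a1, Fos and Slamf6 themselves and give no free-RNA level for them: Fos was seen in 6.92% and 5.56% of members against 10.7% and 22.2% of B cells, and Slamf6 in 18.7% and 8.41% against 29.1% and 26.7%.

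**Figure D4:**
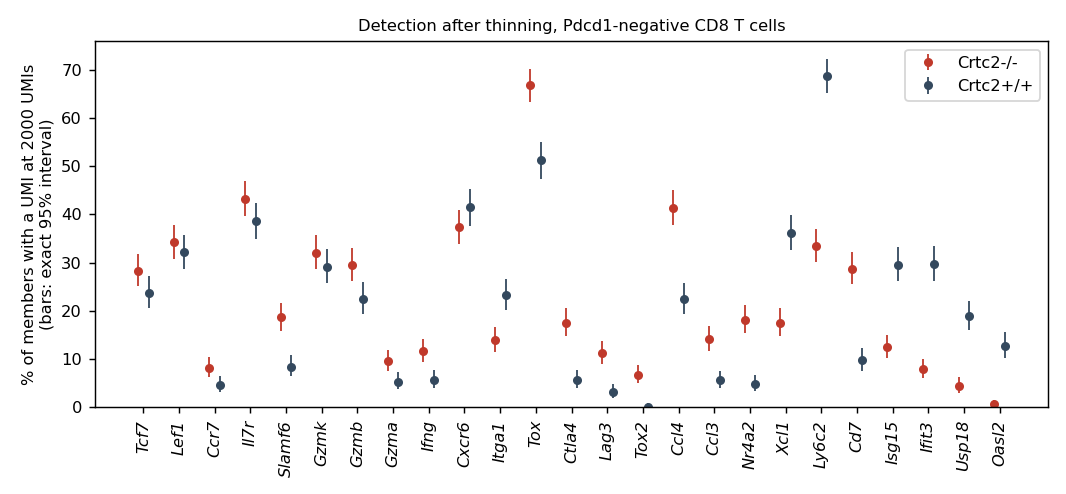
Share of members with at least 1 UMI of a gene after thinning each cell to 2000 UMIs (y, %), Crtc2-/- in red and left, Crtc2+/+ in dark blue and right of it, with exact 95% intervals (723 and 666 members). Ly6c2 is seen in 33.5% against 68.8% and Ccl4 in 41.4% against 22.4%, while Gzmk is seen in 32.1% against 29.1%.

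Immediate early and feedback genes followed: 24 of 26 were above 0 and 5 were at least 2-fold higher (1.73% of all genes were). The list's median was 0.50. Without the members high in another lineage described below, 23 of 26 were above 0, with a median of 0.52. In that setting 4 were at least 2-fold higher (0.671% of all genes were). Dusp1, a phosphatase of MAP kinases, was at 94.3 CPM in Crtc2-/- and 24.7 CPM in Crtc2+/+ members, and Tnfaip3 (A20), which restrains NF-kB, at 240.0 and 138.7 CPM. Fos was at 96.0 and 36.1 CPM with 55.1% and 44.1% of its UMIs in 5 cells. Myc was lower, at 22.7 and 43.5 CPM. Heat shock genes, which respond to tissue dissociation, had a median of 0.14 with 8 of 12 above 0, and Hspa1b was at 266.1 and 157.5 CPM. The part of dissociation in the immediate early values was not tested. Dusp1 was the 1 gene of 10 with a promoter among the 15 highest that held the CREB element, in capitals here.

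Dusp1, chr17:26508423-26508722, minus strand: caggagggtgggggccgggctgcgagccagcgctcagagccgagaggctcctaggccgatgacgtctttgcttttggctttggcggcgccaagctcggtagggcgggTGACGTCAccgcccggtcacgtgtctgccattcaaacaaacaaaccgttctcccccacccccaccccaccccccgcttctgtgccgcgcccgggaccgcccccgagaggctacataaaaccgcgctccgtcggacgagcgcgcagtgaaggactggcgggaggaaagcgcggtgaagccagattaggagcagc

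Over all members, naive, memory and stem-like genes were slightly higher in the Crtc2-/- library, with 17 of 18 above 0 and a median of 0.41. Inside the gates described below, the median was 0.46 in the naive or central gate and 0.12 in the residency gate. It was 0.02 in the Gzmk gate, 0.003 in the gamma-delta or NK gate and 0.007 in cells of none of them. Il7r, the interleukin-7 receptor of resting T cells, was at 731.6 and 443.8 CPM, Klf2, which keeps T cells circulating, at 822.4 and 552.0 CPM, and Lef1 at 494.5 and 336.7 CPM. At 2000 UMIs Il7r was seen in 43.3% and 38.6% of members and Lef1 in 34.3% and 32.1%; unthinned, in the opposite order, Il7r in 51.1% and 57.7% and Lef1 in 47.3% and 52.6%. Slamf6 was the only gene of the list at least 2-fold higher, at 133.9 and 56.7 CPM. Bcl2, a survival gene, was the exception, at 989.8 (959.4 to 1021) CPM in Crtc2-/- and 1690 (1648 to 1732) CPM in Crtc2+/+ members. Per cell the list's medians were close, 48.2 and 50.1 UMIs per 10000, and 49.2% of Crtc2-/- members lay above the Crtc2+/+ median. The 10th percentiles were 16.7 and 22.9 and the 90th percentiles 115.4 and 89.2. Per-cell values were thus more widely spread in the Crtc2-/- library, at the low end as well as the high end.

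Cytotoxic genes were mixed: 13 of 20 were above 0, with a median of 0.23 and none 2-fold apart once 10 CPM is added. Gzmb was at 297.6 and 210.8 CPM and Gzma at 181.4 and 85.9 CPM (log2 ratio 0.997, and 1.10 without the members high in another lineage described below), whereas Prf1 (perforin) was at 78.3 and 75.8 CPM and Nkg7, a granule gene, at 1640 and 1782 CPM. Ctsw, a lymphocyte cathepsin, was at 273.7 and 418.6 CPM. Tissue residency genes had a median of 0.04. Cxcr6, a homing receptor of liver T cells, was at 276.9 and 273.3 CPM, Itga1 at 106.6 and 166.2 CPM, and Cdh1 (E-cadherin) at 9.35 and 70.8 CPM (-2.06). Cdh1 was seen in 0.692% and 11.1% of members at 2000 UMIs, and in 0 of the 1125 and 531 B cells of that depth (exact upper limits 0.327% and 0.692% of cells with a UMI). Unthinned, 0.355% and 1.09% of B cells had a Cdh1 UMI.

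Of the other named genes, Ly6c2, a surface protein of memory CD8 T cells and monocytes, was at 496.5 CPM in Crtc2-/- and 1417 CPM in Crtc2+/+ members (-1.49). It has a near-identical neighbour, Ly6c1, so reads may be divided between them. Cd7, a lymphocyte surface receptor, was at 217.4 and 56.5 CPM, Maf, a transcription factor of interleukin-10-producing T cells, at 111.8 and 22.02 CPM, and Trps1, a GATA-type repressor, at 419.2 and 167.8 CPM. The retinoid-related receptor gene Rora was at 197.9 and 80.6 CPM, and Atp8a2, which encodes a lipid flippase subunit, at 109.3 and 27.0 CPM. Alcam, the ligand of CD6, was at 158.8 and 61.0 CPM, with 36.4% and 42.6% of its UMIs in 5 cells. Without the members high in another lineage described below, Alcam was at 88.1 and 34.5 CPM. Chn2 was at 226.7 and 94.1 CPM, Actn1 (an actinin) at 79.3 and 29.4 CPM, and Dtx1 at 51.2 and 17.0 CPM. Among the lowest genes Unc5cl was at 22.7 and 87.8 CPM, Slfn5 at 35.0 and 123.8 CPM, and Parp11 at 31.8 and 110.3 CPM. In CRTC, CREB and cAMP genes 19 of 22 were above 0 (median 0.13), and none was 2-fold apart once 10 CPM is added. The kinase gene Sik1 had the highest ratio of the list (0.74), at 31.5 (26.3 to 37.5) and 14.9 (11.2 to 19.3) CPM. Crem was at 58.3 and 41.1 CPM and Creb1 at 182.4 and 167.0 CPM. End-joining genes had a median of -0.06, with Prkdc, the catalytic subunit of DNA-PK, at 60.6 and 79.8 CPM.

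Members in both libraries contained several states, read from transcripts at 2000 UMIs a cell. A naive or central gate (transcripts of naive cells without granzyme or residency transcripts) held 171 of 723 Crtc2-/- members (23.7%, 20.6 to 26.9) and 111 of 666 Crtc2+/+ members (16.7%, 13.9 to 19.7). A residency gate (Itgae, Itga1 or Cxcr6) held 43.9% (40.2 to 47.6) and 52.1% (48.2 to 56.0), and a Gzmk gate 32.1% and 29.1%. A gate of gamma-delta or NK transcripts held 22.5% and 17.6%. It counts transcripts and not gamma-delta or NK cells. Its gene Tcrg-C2 was seen, unthinned, in 23.0% and 18.5% of members. In CD8 T cells with a Pdcd1 UMI Tcrg-C2 was at 256.3 and 205.4 CPM. The gates overlap: 119 Crtc2-/- and 112 Crtc2+/+ cells lay in both the Gzmk and residency gates. Another 99 and 69 overlaps were between the residency gate and the gamma-delta or NK gate. Trdc, the delta-chain constant gene that marks gamma-delta T cells, was seen in 1.38% and 0.450% of members (B cells 0.267% and 0.377%).

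The type I interferon list was lower inside each gate. Its median was -0.75 in the naive or central gate, -1.16 in the residency gate, -1.29 in the Gzmk gate, -1.33 in the gamma-delta or NK gate and -1.09 in cells of none of them. Exhaustion and activation genes had medians of 0.20 in the naive or central gate and 0.90 in the residency gate. Tcf7 had a log2 ratio of 0.755 in the naive or central gate and 0.41 in cells of no gate. Its ratio was -0.55 in the Gzmk gate, -0.39 in the residency gate and -0.33 in the gamma-delta or NK gate. Ccl4 was at 77.3 CPM in Crtc2-/- and 44.8 CPM in Crtc2+/+ cells of the naive or central gate, and at 1176 and 177.7 CPM in the residency gate. Ccl3 in the naive or central gate was at 8.13 and 25.9 CPM, from 10 and 22 UMIs. Tox2 had 0 UMIs in that gate in both libraries and 78 and 0 in the residency gate.

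Set beside CD8 T cells with a Pdcd1 UMI, members had more naive and fewer exhaustion transcripts in both libraries, as values of the contrast that the selection made. The naive list was higher in members by a median of 1.19 in the Crtc2-/- and 0.64 in the Crtc2+/+ library, and the exhaustion list was lower, at -1.20 and -0.97. Tcf7 was higher in members by 1.76 in the Crtc2-/- and 0.96 in the Crtc2+/+ library (log2). Ccl4 was at 755.7 CPM in members and 3082 CPM in Pdcd1-positive cells of the Crtc2-/- library, and at 151.6 and 692.6 CPM in the Crtc2+/+ library. The interferon list had medians of 0.01 and 0.07 between members and Pdcd1-positive cells.

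A few members carried many transcripts of another cell type, and they hold much of the higher side of the comparison. At least 5 UMIs of an endothelial, neutrophil, macrophage, dendritic, hepatocyte, B cell, red cell or Spp1 set were found in 44 Crtc2-/- members (5.95%) and 13 Crtc2+/+ members (1.94%). In the Crtc2-/- library 6 members held 962 of 1043 endothelial UMIs, with a median of 19812 UMIs a cell. The sinusoidal endothelial gene Stab2 had 237 UMIs in Crtc2-/- and 0 in Crtc2+/+ members, at least 73.4-fold higher against a floor of 3 UMIs. Spp1 (osteopontin) went the other way, with 18.2 CPM in Crtc2-/- and 508.7 CPM in Crtc2+/+ members, where 4 cells held 1769 of 1919 UMIs.

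Summed macrophage and monocyte markers, 12 genes, stood at 1279 CPM in Crtc2-/- and 2240 CPM in Crtc2+/+ members, but most of that gap was Ly6c2, and the other 11 summed to 782.5 and 822.9 CPM. The smaller set of Lyz2, Csf1r and Cd68 had 924 UMIs in Crtc2-/- and 300 in Crtc2+/+ members, 665 of the 924 in 10 cells. B cell markers stood at 203.8 and 113.5 CPM, and neutrophil markers at 181.2 and 12.7 CPM. Kupffer cell markers were at 26.3 and 1.33 CPM. Leaving these cells out, a setting chosen after seeing the data, shows the values without their RNA: then 53 genes (0.671%) were at least 2-fold higher and 63 (0.797%) at least 2-fold lower, 46 of the 141 and 51 of the 54 being shared. The type I interferon median was then -1.24, with 0 of 40 above 0, and the exhaustion and activation median 0.82. The 11 macrophage markers other than Ly6c2 then summed to 366.7 and 668.6 CPM. Ccl4 was at 784.9 and 154.5 CPM and Ifit3 at 61.8 and 305.4 CPM, while Fos was at 38.3 and 36.1 CPM and Spp1 at 10.2 and 40.6 CPM.

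**Figure D5:**
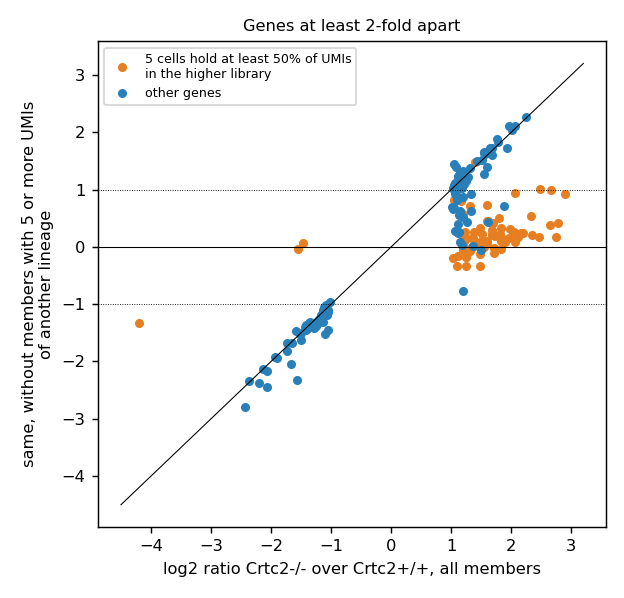
Log2 ratio of Crtc2-/- over Crtc2+/+ with all members (x) and without members holding 5 or more UMIs of another lineage (y), for the 195 genes at least 2-fold apart; orange marks genes with at least 50% of their UMIs in 5 cells of the higher library. Of the 141 higher genes 69 are orange and most lie near 0 on the y axis, while 3 of the 54 lower genes are orange.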

How the data were processed

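Raw UMI counts per gene and barcode were deposited, as a matrix for each genotype whose header names Cell Ranger 7.1.0, per the file headers; the submitters' processing notes list Cell Ranger, Seurat and the mm10 build. Neither the annotation nor whether introns were counted is recorded there. Barcodes were kept with at least 500 UMIs, 250 genes and at most 20% mitochondrial UMIs. Members' counts were summed per library and scaled to CPM with exact Poisson intervals, and shares carry exact Clopper-Pearson intervals at 95%, covering counting error only. Log2 ratios added 10 CPM; genes with a mean of at least 10 CPM were compared, and 2-fold was the limit for counts. Cells were thinned without replacement to 2000 UMIs. Doublets were called by Scrublet (scanpy 1.11.5) and kept. Cells of 1 library are not replicates, so no test was made. The ratio calculation was tested on simulated counts. Python 3.11.15, numpy 2.4.6, scipy 1.17.1 and pandas 2.3.3 were used.

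Named were the 15 highest and 15 lowest ratios among genes that reached 50 CPM in either library, were seen in 5% or more of the higher library's members and had at least 20% of the CPM of Cd3-negative barcodes, without mitochondrial, ribosomal protein, haemoglobin, immunoglobulin, variable segment, sex-linked and predicted genes. Markers, Crtc and CREB genes and up to 6 genes per list were added. Further list members named for their role were chosen after their values were seen. The members and lists were chosen with earlier results of these data known. Results for some genes and motifs are not reported here.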

Additional observations from a re-analysis of the deposited data

How the results depend on the processing

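The type I interferon median stayed below 0 and the exhaustion and activation median above 0 in the settings run, which changed pseudocount, filter, depth, mitochondrial limit, doublets, CD8 threshold and gate. With a pseudocount of 1 CPM, 254 genes were at least 2-fold higher and 85 lower, and the interferon median was -1.37. With each cell weighted equally, 78 were higher and 58 lower, so 57.4% of calls were higher, against 72.3%. Without members high in another lineage 53 were higher. Among cells with no transcript of other lineages (248 Crtc2-/- and 122 Crtc2+/+), 106 genes were lower, the exhaustion median was 1.07, the log2 ratio of member shares 1.09, and Trdc -0.30. Inside the naive or central gate the interferon median was -0.75, the exhaustion median 0.20 and the cytotoxic median -0.26, with Ccl3 at -0.99, Atp8a2 at -0.002, Alcam at -0.48, Fos at -0.27 and Chn2 at -0.37. Inside the gamma-delta or NK gate Alcam was at -0.015 and Fos at -0.58, and in none of the gates the cytotoxic median was -0.11. Unthinned, the share with a Tcf7 UMI differed by -6.644 points (Crtc2-/- minus Crtc2+/+), against the thinned share and the CPM. The cause of these shifts was not tested. No paired analysis was possible because each genotype had 1 library. Depth limits genes under about 10 CPM, Crtc2 among them.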

Other observations

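Some genes outside the lists, chosen after their values were seen, also differed between the libraries. Jaml, an adhesion receptor of T cells and neutrophils, was seen at 2000 UMIs in 11.8% (9.50 to 14.3) of Crtc2-/- and 25.1% (21.8 to 28.6) of Crtc2+/+ members. In CD8 T cells with a Pdcd1 UMI it was seen in 8.49% and 9.26%; the difference between the populations was not tested. Igkc, an immunoglobulin light chain gene that T cells do not transcribe, was at 90.6 CPM in Crtc2-/- and 21.5 CPM in Crtc2+/+ members.

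T cell receptor beta variable segments were seen in 70 Crtc2-/- and 64 Crtc2+/+ members, over 17 and 16 segments. Trbv12-2 was the most frequent in both, in 14 of the 70 (11.4% to 31.3%) and 9 of the 64 (6.64% to 25.0%).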
